A study of Mus musculus with 2 samples.

Results

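Col1a1, Col1a2 and Col3a1 code for the fibril collagens of bone, tendon, skin and other fibrous tissue, and the data show where the transcription factors Sox6 and Sox9 were called as bound around them in cartilage cells. Every called peak with its centre in 1 of 3 windows of the mouse genome build mm9 was taken. The windows ran on chromosome 11 from 94770000 to 94830000 (Col1a1), on chromosome 6 from 4430000 to 4510000 (Col1a2) and on chromosome 1 from 45340000 to 45415000 (Col3a1). They held 20 of the 102972 peaks of the series. Sox6 gave 16 of these, from a list of 79107, and Sox9 gave 4, from a list of 23865. The Sox6 sample was a chromatin immunoprecipitation with sequencing (ChIP-seq) on primary rib chondrocytes of untreated wild-type ICR mice at postnatal day 1, and its control was input DNA of such cells, made with no antibody. The ribs had been cleared of soft tissue and dissected to leave out mature hypertrophic cartilage. The Sox9 peaks come from earlier rib chondrocyte samples that the authors processed again, and neither strain nor age of those animals is stated in the material used here. There is 1 list per factor, with positions and no scores or read counts, so depth is unknown, no value has a replicate error and no test was made. A difference between the factors cannot be told apart from a difference between the libraries. The files hold no expression values, so the cell type could not be checked against its marker genes.

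Type I collagen is a triple helix of chains from Col1a1 and Col1a2 and forms the main fibre of bone, tendon and skin. Type III collagen is made of Col3a1 chains alone and accompanies type I in skin, vessels and loose connective tissue. Mature cartilage is built instead on type II collagen from Col2a1 and on the proteoglycan aggrecan from Acan. SOX9 is required for cartilage formation and activates both of those genes. SOX6 lacks an activation domain of its own and works with SOX9 in chondrocytes. Both factors hold DNA through an HMG box, whose usual core sequence is ACAAT.

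The reference sequences before the starts of Col3a1 and Col1a2 are shown because they differ in that core. They are the 250 bases before each gene's start from RefSeq on build GRCm38.p6, on the plus strand, at chr1:45311288-45311537 for Col3a1 and chr6:4505368-4505617 for Col1a2. Of the 3 genes, 2 had an entry, and Col1a1 was not matched. Capitals mark matches to ACAAT or its reverse complement ATTGT.
Col3a1: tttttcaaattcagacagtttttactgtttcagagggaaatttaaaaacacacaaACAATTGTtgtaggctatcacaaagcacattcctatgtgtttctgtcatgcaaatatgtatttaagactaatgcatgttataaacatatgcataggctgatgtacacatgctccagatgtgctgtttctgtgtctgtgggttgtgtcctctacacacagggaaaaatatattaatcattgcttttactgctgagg
Col1a2: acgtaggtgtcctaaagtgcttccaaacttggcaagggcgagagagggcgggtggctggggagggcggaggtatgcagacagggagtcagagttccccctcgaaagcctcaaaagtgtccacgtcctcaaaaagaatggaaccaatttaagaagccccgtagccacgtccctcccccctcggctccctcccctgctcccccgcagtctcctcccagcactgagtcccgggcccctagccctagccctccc
The Col3a1 stretch held 2 matches, 1 on each strand, which overlap so that together they read ACAATTGT. The plus-strand match began 195 bases before the gene start and the minus-strand match ended 188 bases before it. The Col1a2 stretch held 0 matches, and so did the stretch before Acan. Of the 32851 stretches in the table, 27.7% held at least 1 match, and with the longer AACAAT, or ATTGTT on the other strand, 9.42% did. Col3a1 kept 2 matches to the longer letters. The sequence before Col3a1 had 35.2% G and C and that before Col1a2 62.0%, against a median of 52.4% over all genes. These letters describe the sequence and show no binding. They are on another build than the peaks, so whether a peak covers either stretch was not analysed here, nor were exons, introns and gene starts within the windows. By gene order in the same annotation, the neighbours of Col1a1 were Gm11544 and Sgca, those of Col1a2 were Bet1 and Casd1, and those of Col3a1 were Gulp1 and Col5a2.

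The 3 collagen loci differed in the number of peaks and in the factors called. Col1a1 had 8 Sox6 peaks and 3 Sox9 peaks in 60 kb, Col1a2 had 5 Sox6 peaks and 0 Sox9 peaks in 80 kb, and Col3a1 had 3 Sox6 peaks and 1 Sox9 peak in 75 kb. Per 100 kb this was 13.3 Sox6 peaks at Col1a1, 6.25 at Col1a2 and 4.00 at Col3a1, against 3.08 over the genome. For Sox9 it was 5.00 at Col1a1, 0 at Col1a2 and 1.33 at Col3a1, against 0.930 over the genome. Over the 215 kb of the 3 windows the Sox6 density was 2.41 times and the Sox9 density 2.00 times that of the genome. Genome length was taken as the 2566 Mb between the first and last peaks of the chromosomes. Col1a1 thus held 8 of 16 Sox6 peaks and 3 of 4 from Sox9.

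**Figure D1:**
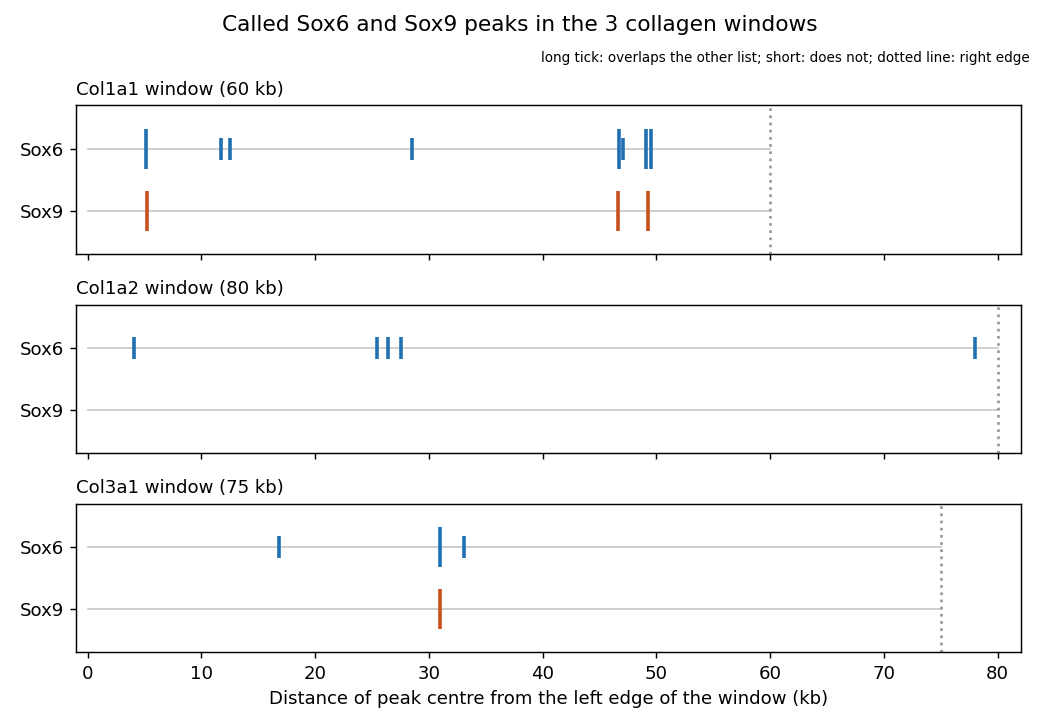
Each row is a collagen window, with the distance of peak centres from its left edge in kb on the horizontal axis, Sox6 ticks above and Sox9 ticks below. Long ticks are peaks that overlap the other list. All 4 Sox9 ticks stand under long Sox6 ticks, and the Col1a2 row has 5 Sox6 ticks and 0 Sox9 ticks.

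Other stretches of the same chromosomes held as many peaks, and the share that did depended on the stretches compared. When chromosome 11 was divided into 1975 adjoining tiles of 60 kb, 9.77% held at least the 8 Sox6 peaks of Col1a1 and 11.7% at least its 3 Sox9 peaks. The tiles averaged 2.70 Sox6 and 0.848 Sox9 peaks. Among tiles of that length on all autosomes the shares were lower, at 5.55% for Sox6 and 6.92% for Sox9. On chromosome 6, 19.1% of 1825 tiles of 80 kb held at least the 5 Sox6 peaks of Col1a2, and 67.0% held no Sox9 peak, as Col1a2 does. On chromosome 1, 29.7% of 2578 tiles of 75 kb held at least the 3 Sox6 peaks of Col3a1, and 32.5% held at least 1 Sox9 peak. When tiles with no peak of either factor were left out, the Sox6 shares were 14.6% for Col1a1, 34.2% for Col1a2 and 53.6% for Col3a1. The Sox9 shares were then 17.5% for Col1a1 and 58.8% for Col3a1. The windows were placed around genes and the tiles were not, so these shares place the loci on their chromosomes and test nothing. For Col1a2, tiles as rich in Sox6 usually held Sox9 as well. Of the 349 tiles with at least 5 Sox6 peaks, 40 (11.5%) had no Sox9 peak, and the median was 2 Sox9 peaks.

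**Figure D2:**
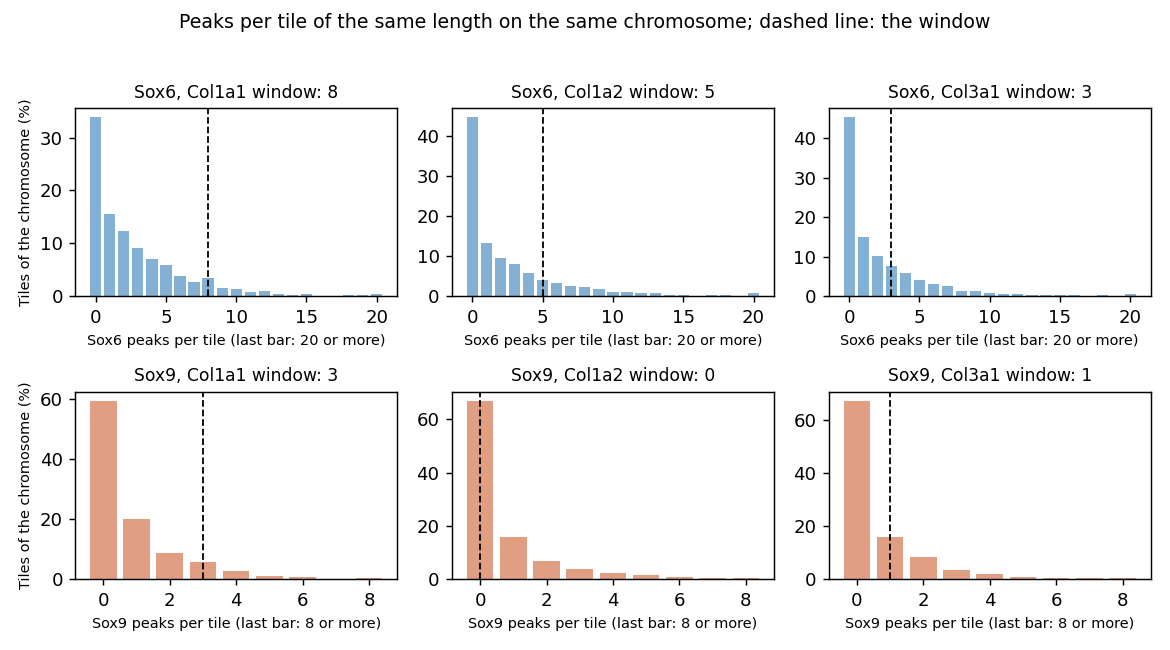
Bars give the percentage of tiles of a chromosome with each number of Sox6 peaks (top) or Sox9 peaks (bottom), with tiles as long as the window, and the dashed line marks the count in the window. The Col1a1 lines, at 8 and 3, lie in the right part of their distributions, and the Col1a2 line for Sox9 lies at 0, on the tallest bar.

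At Col1a1, the peaks formed a looser set on the left of the window and a tight group on the right. The leftmost site was called for both factors, with a Sox6 peak from 94775091 to 94775213 and a Sox9 peak from 94775105 to 94775282. They shared 109 bp, and their centres were 41.5 bp apart. A pair of Sox6 peaks without Sox9 followed, from 94781699 to 94781817 and from 94782382 to 94782581, with centres 724 bp apart. Another Sox6 peak stood alone from 94798437 to 94798556, with 16.0 kb to the Sox6 centre on its left and 18.2 kb to the one on its right. The remaining 4 Sox6 peaks and 2 Sox9 peaks formed a group in the right part of the window.

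This right-hand group at Col1a1 spanned 3.0 kb, from 94816565 to 94819568, and held 3 of the 5 collagen Sox6 peaks that overlapped Sox9. Its first site had a Sox9 peak from 94816565 to 94816745 and a Sox6 peak from 94816602 to 94816770, sharing 144 bp with centres 31.0 bp apart. That was the shortest distance between factors in the 3 windows. A Sox6 peak from 94817022 to 94817119 lay beside this site, 416 bp from the Sox9 centre, without touching it. The last site was a broad Sox9 peak of 454 bp, from 94819029 to 94819482, with a Sox6 peak on each of its edges. The left one, from 94818988 to 94819122, shared 94 bp with it, and the right one, from 94819434 to 94819568, shared 49 bp. Their centres were 201 and 246 bp from the Sox9 centre and 446 bp from each other. In the whole Sox9 list, 117 peaks (0.490%) overlapped at least 2 Sox6 peaks, and 0.943% of peaks were at least 454 bp wide. This site was singled out after its values had been seen.

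**Figure D3:**
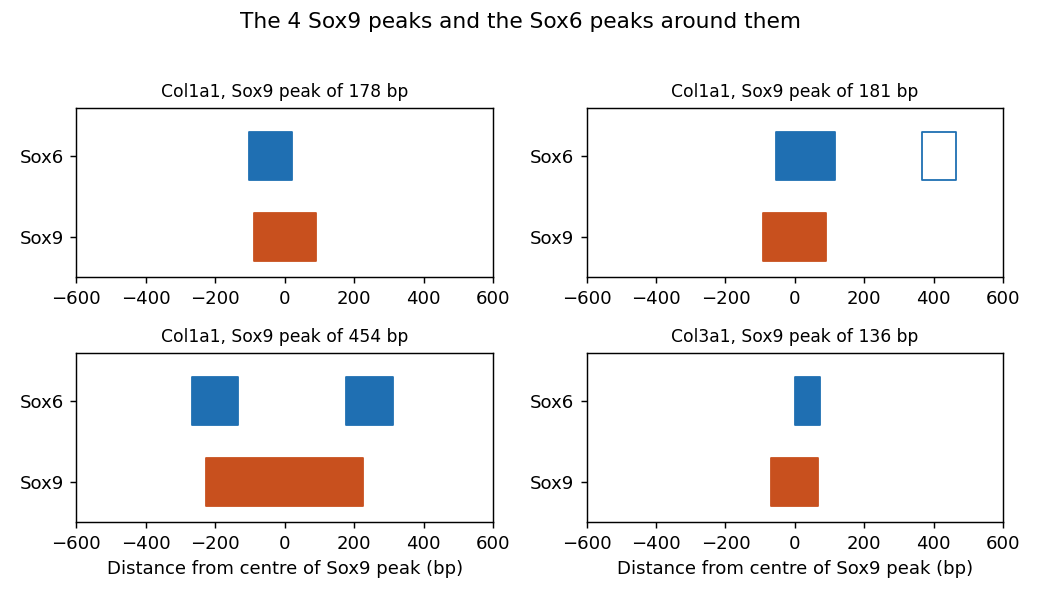
Each panel shows 1 of the 4 Sox9 peaks (lower bar) and the Sox6 peaks near it (upper bars) to scale, by distance in bp from the Sox9 centre. Filled Sox6 bars overlap the Sox9 peak, and the open bar does not. In 3 panels a single Sox6 peak lies over the Sox9 peak, and the 454 bp peak has a Sox6 peak at each end.

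At Col1a2, the other type I collagen gene, Sox6 was called 5 times without Sox9. Most Sox6 peaks lack such an overlap, as 60870 of the 79107 in the whole list met no Sox9 peak. A group of 3 of these peaks ran from 4455317 to 4455488, from 4456291 to 4456433 and from 4457446 to 4457630, with centre gaps of 960 and 1176 bp. The remaining 2 lay near the edges of the window, from 4433964 to 4434105 and from 4507831 to 4508132, and the right one was the widest Sox6 peak of the 3 loci at 302 bp. The nearest Sox9 centre was 183 to 256 kb from these peaks. In the whole Sox6 list, 4.26% of peaks were at least 183 kb from a Sox9 centre, and the median distance was 7.61 kb. The stretch without a Sox9 peak ran on chromosome 6 from 4037001 to 4690394, or 653 kb, and held 9 more Sox6 peaks outside the window. Of the 23695 stretches between Sox9 peaks, 641 (2.71%) were at least as long, and these covered 42.4% of the genome range.

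At Col3a1, the type III collagen gene, 1 site was called for both factors. The Sox9 peak ran from 45370893 to 45371028 and the Sox6 peak from 45370961 to 45371033, and they shared 68 bp with centres 36.5 bp apart. The Sox6 peak was the narrowest of the 3 loci at 73 bp, and 6.57% of the Sox6 list was as narrow. Another Sox6 peak, from 45372950 to 45373143, lay 2.05 kb to the right. The leftmost, from 45356782 to 45356889, lay 14.2 kb to the left. Neither touched a Sox9 peak, and their centres were 2.09 and 14.1 kb from the Sox9 centre.

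Across the 3 loci, all 4 Sox9 peaks met a Sox6 peak with 1 bp or more in common, against 76.7% of the Sox9 list. The exact binomial interval for 4 of 4 runs from 39.8 to 100% (Clopper-Pearson, 95%). With only 4 peaks it is too wide to tell the loci from the list, so its holding the share of the list decides nothing. Among the 16 Sox6 peaks there were 5 that met a Sox9 peak, or 31.2% (11.0 to 58.7), against 23.1% of the Sox6 list, a share near the background. By gene this was 4 of 8 at Col1a1, 0 of 5 at Col1a2 and 1 of 3 at Col3a1, and their intervals of 15.7 to 84.3%, 0 to 52.2% and 0.840 to 90.6% overlapped. The intervals cover counting error only and treat peaks as independent, which neighbouring peaks are not. The 11 unshared Sox6 peaks had a median distance of 18.2 kb to a Sox9 centre, against 15.9 kb for unshared Sox6 peaks of the whole list. With at least 50% of both peaks required to overlap, 3 Sox6 and 3 Sox9 peaks counted as shared, because the broad Sox9 peak and its 2 Sox6 neighbours dropped out. In the whole lists 13.4% of Sox6 and 44.6% of Sox9 peaks met that rule. With centres no more than 250 bp apart as the rule, the counts were 5 and 4, against 24.4% of all Sox6 and 81.1% of all Sox9 peaks. With up to 1000 bp allowed between the edges, they were 6 and 4, against 32.3% and 90.8% of the lists. The Sox6 peak gained was the one beside the first site of the right-hand group at Col1a1.

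Sox6 peaks with at least 2 other Sox6 peaks within 2.5 kb numbered 7 of 16, against 22.7% of the Sox6 list. They were 4 of the 8 at Col1a1 and 3 of the 5 at Col1a2, with 0 of the 3 at Col3a1. The 4 are the right-hand group at Col1a1, and the 3 are the group at Col1a2. Peaks of a group count as neighbours of one another, so the 7 are not separate observations. Within 5 kb the collagen count was again 7 of 16, against 36.0% of the list. Of the 4 Sox9 peaks, 0 had another Sox9 peak within 2.5 kb, against 27.0% of the Sox9 list with at least 1 and 5.99% with at least 2. The 2 right-hand Sox9 peaks at Col1a1 lay just past that distance, with centres 2.60 kb apart. Within 5 kb the count was therefore 2 of 4, against 37.5% of the list. Both distances were chosen after the peaks had been seen. Widths were close to those of the lists, with medians of 138.5 bp for the collagen Sox6 peaks against 151 bp, and 179.5 bp for the collagen Sox9 peaks against 183 bp.

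The collagen peaks were spread over the whole length of both lists. The order of the lists is not documented, so a place in a list is given as a description and not as a strength of binding. The Sox6 peaks stood at 7.0 to 91.0% of their list, with a median of 45.3%, and the Sox9 peaks at 7.11 to 93.3% of theirs, with a median of 39.5%. The earliest Sox6 place was that of the shared Col3a1 peak, at 7.0% (place 5540). It was followed by the Sox6 peak on the right edge of the broad Sox9 peak at Col1a1, at 7.85% (place 6208). At Col1a2 the earliest place was 16631, or 21.0%, that of the right peak in its group of 3. The earliest Sox9 peak was the one in the 31.0 bp pair at Col1a1, at place 1696, while its Sox6 partner stood at 51.0% of the Sox6 list. The leftmost shared site at Col1a1 had the opposite order, with Sox6 at 11.6% and Sox9 at 93.3%. In the first 25% of the Sox6 list 3 of 5 collagen peaks were shared, against 54.0% of all peaks there. Farther down the list 2 of 11 were shared, against 12.7% of all peaks there. Between 25 and 50% of the list 0 of 3 were shared, against 22.2%. The count was 1 of 4 between 50 and 75%, against 10.2%, and 1 of 4 beyond 75%, against 5.87%.

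**Figure D4:**
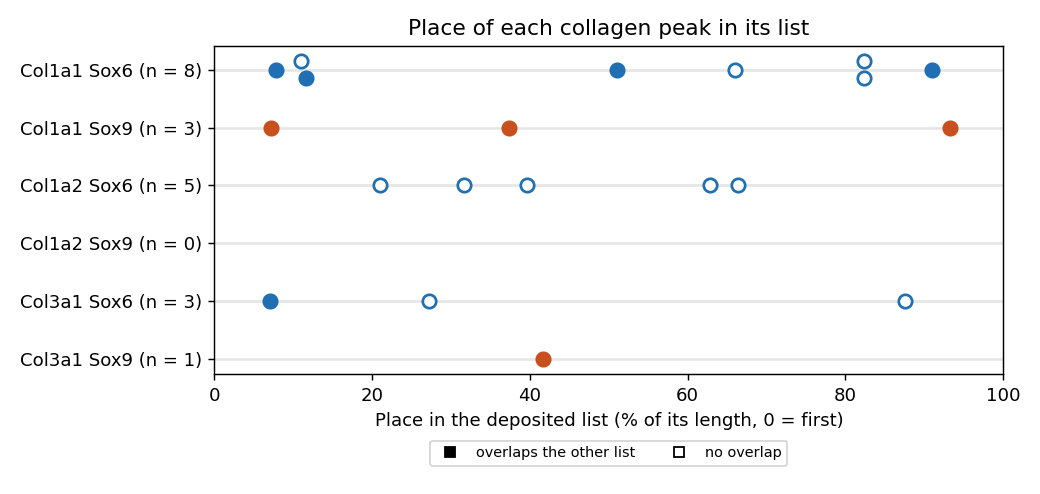
Points show the place of each collagen peak in its list as a percentage of the list's length, with 1 row per gene and factor. Points close together are set apart vertically. Filled points overlap the other list, and open points do not. Shared Sox6 points lie at 7.0 to 91.0%, and the 5 Col1a2 points, all open, lie between 21.0 and 66.4%.

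Set beside cartilage matrix genes, the collagen I and III loci had lower Sox6 densities, and their Sox9 densities were below that of Col2a1. Windows of 80 kb centred on Col2a1 and on Acan served for this, and both genes were chosen with earlier results known. Sox6 peaks numbered 8 at Col1a1, 5 at Col1a2 and 3 at Col3a1, against 19 at Col2a1 and 51 at Acan. Per 100 kb this was 13.3, 6.25 and 4.00 at the collagen I and III genes, in that order, against 23.8 at Col2a1 and 63.8 at Acan. Sox9 peaks numbered 3 at Col1a1, 0 at Col1a2 and 1 at Col3a1, against 27 at Col2a1 and 4 at Acan. The Sox9 density at Col1a1, 5.00 per 100 kb, equalled that at Acan and was below the 33.8 at Col2a1. It rests on 3 peaks in 60 kb at Col1a1 and 4 in 80 kb at Acan. Sox9 peaks beyond the window edges were not counted, so the equality holds for these windows only. The Col2a1 peaks lay on chromosome 15 between 97780082 and 97859622, and the Acan peaks on chromosome 7 between 86197144 and 86262047. All 4 Sox9 peaks of the collagen loci touched a Sox6 peak, as did 8 of 27 at Col2a1 and 4 of 4 at Acan. In the whole Sox9 list 76.7% of peaks did. Of Sox6 peaks, 5 of 16 at the collagen loci were shared, against 9 of 19 at Col2a1 and 3 of 51 at Acan. The share in the whole Sox6 list was 23.1%. These differences were not tested, since each locus is 1 region of 1 pair of lists.

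**Figure D5:**
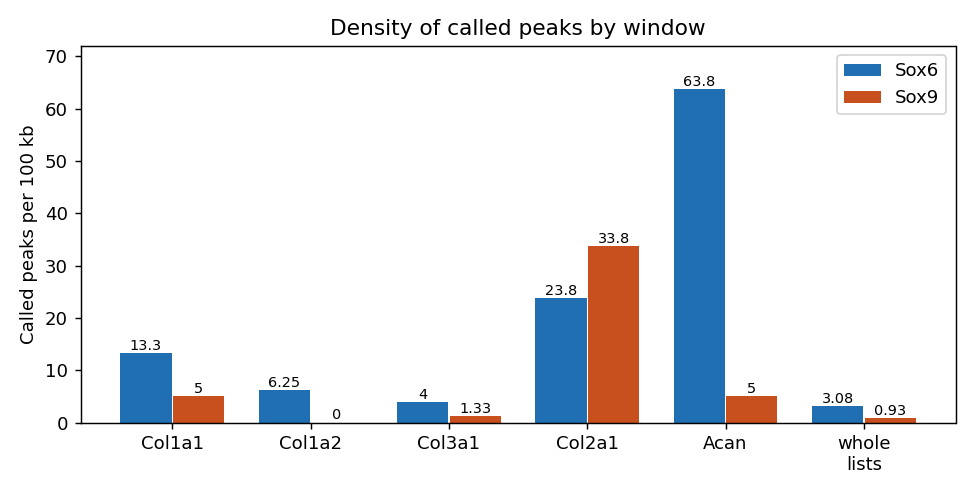
Bars give called peaks per 100 kb, with Sox6 left and Sox9 right, in the windows of Col1a1, Col1a2 and Col3a1, in those of Col2a1 and Acan, and over the whole lists. The tallest bars are those of Acan for Sox6 (63.8) and Col2a1 for Sox9 (33.8). The Col3a1 bars (4.00 and 1.33) are nearest to those of the whole lists (3.08 and 0.930).

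The windows have fixed edges, and some peaks stood just inside or outside them. Nearest outside was a Sox6 peak 1.77 kb to the right of the Col1a1 window, from 94831703 to 94831837, and nearest inside was the right-hand Sox6 peak at Col1a2, 2.02 kb from the edge. The next Sox9 peak outside lay 22.2 kb to the right of the Col1a1 window and overlapped a Sox6 peak. For Col1a2 and Col3a1 the next Sox9 peaks were 180 to 393 kb away on either side.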

How the data were processed

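Both peak lists as deposited by the authors have 3 columns without a header, the chromosome, start and end of each called peak, with no score. Bowtie and the build mm9 appear, with no version, in the submitters' processing notes. The peak caller, its threshold and the way samples were combined are not stated in the sources used here. Both list names carry the mark FDR, written FDR1 in the Sox9 name, without further explanation. The Sox9 list was, per the design text of the series, remade from 2 earlier samples with peaks called as for Sox6. Its build is not given and was taken as mm9. No mm9 genome or annotation was used. Starts were read as counted from 0 and are printed counted from 1.

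Windows and genes were chosen with earlier results of these data known, and the names of the windows were not checked against an mm9 annotation. The Col2a1 and Acan windows were placed from the genes' known mm9 positions. All peaks of the 3 genes were described. Peaks were assigned by centre and called shared from 1 bp of overlap. Overlap counting was tested on simulated data, where 400 of 400 planted pairs among 1000 peaks were found. All planted peaks had the same width and all pairs the same shift. Small overlaps, unequal widths and peaks that meet more than 1 other were not tried. Tiles ran from the first peak of a chromosome. Alternatives changed the overlap rule, the part of each list, the windows, the tiles and the motif. Python 3.11.15, pandas 2.3.3 and SciPy 1.17.1 were used.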

Additional observations from a re-analysis of the deposited data

How the results depend on the processing

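The lists have no scores, so the first part of a list had to stand for a stricter threshold, although its order is undocumented. In the first 50% of each list, 8 Sox6 peaks remained in the windows, of which 2 were shared (22.5% of all Sox6 peaks in that part), and 2 of 3 Sox9 peaks were shared (74.7% of all), while the Sox9 density was 3.00 times that of the genome. With as many Sox6 peaks as the Sox9 list holds, 6 Sox6 peaks remained, and 3 were shared (49.9% of all), as were 3 of 4 Sox9 peaks (50.3% of all). With 50% of both peaks required to overlap, 3 Sox6 peaks were shared. All of these counts fall by construction, since fewer peaks or stricter overlaps enter. Gaps of up to 1000 bp, centres no more than 250 bp apart, windows widened by 25 kb on each side and any overlap with the window left the numbers of shared peaks and of peaks within 1.5 times those reported. The density ratios stayed above 1, at 2.04 to 3.00 for Sox6 and 1.47 to 3.00 for Sox9.

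The share of tiles with as many peaks moved with the tiles used. Among tiles of all autosomes it was 5.55% for Sox6 and 6.92% for Sox9 at Col1a1, and 33.3% for Sox6 at Col3a1. Among tiles with at least 1 peak, which leaves out empty ones, it was 14.6% and 17.5% for Sox6 and Sox9 at Col1a1, 34.2% for Sox6 at Col1a2, and 53.6% and 58.8% for Sox6 and Sox9 at Col3a1. Shifting the tiles by 50% of their length moved no share beyond its counting interval. No paired analysis was possible because each factor has a single list.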
